A study of Mus musculus with 2 samples.

Results

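The genes described here are 10 genes of iron storage, iron transport and the oxidative stress response, chosen by name from the 32285 genes of the deposited gene table: Ftl1, Ftl1-ps1, Fth1, Tfrc, Slc40a1, Hmox1, Nqo1, Gclm, Txnrd1 and Srxn1. All 10 were found, each under 1 identifier. They were measured by droplet single-cell RNA sequencing in R1 embryonic stem cells of the mouse, in 1 library per condition, 72 hours after the start of treatment. LB cells received LIF, a cytokine of self-renewal, and BMP4 on gelatin. LBPXRS cells received LIF and BMP4 with further compounds on fibronectin: the MEK inhibitor PD0325901, the tankyrase inhibitor Xav939, the activin and NODAL receptor inhibitor SB431542, and Resorcyclic lactone, for which no target is given. Both grew in N2B27 medium at the same range of seeding density. Medium and substrate differ together and cannot be told apart.

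Ferritin is the hollow protein shell in which cells keep iron, built of light chains (Ftl1) and heavy chains (Fth1). Cells take up iron bound to transferrin through the transferrin receptor (Tfrc) and release it through ferroportin (Slc40a1). Iron regulatory proteins bind short hairpins in these messenger RNAs: a hairpin ahead of the coding region holds back translation of ferritin, and hairpins behind the coding region of Tfrc protect its messenger RNA from decay. NRF2 (gene Nfe2l2), a transcription factor held in check by KEAP1, turns on genes against oxidants through antioxidant response elements. The ferritin genes are themselves among its known targets.

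The hairpins are shown first, for the ferritin genes, Tfrc and Slc40a1. The NRF2 target genes other than ferritin were not searched. A search of 1 main GENCODE transcript per gene (mm10) looked for a C, 5 bases, the loop CAGTGN and 5 bases that pair with the first 5. It found 1 site ahead of the coding region in Ftl1, Ftl1-ps1, Fth1 and Slc40a1, and 4 sites behind the coding region of Tfrc. A match is a description of the letters only. The loop is in capitals.
Ftl1, chr7:45459780-45459806, minus strand: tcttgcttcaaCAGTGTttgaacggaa
Fth1, chr19:9982733-9982759, plus strand: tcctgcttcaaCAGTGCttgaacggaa
Slc40a1, chr1:45925466-45925492, minus strand: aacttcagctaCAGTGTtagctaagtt
Tfrc, chr16:32631220-32631246, plus strand: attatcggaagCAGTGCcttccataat
Tfrc, chr16:32631599-32631625, plus strand: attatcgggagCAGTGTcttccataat
Tfrc, chr16:32631664-32631690, plus strand: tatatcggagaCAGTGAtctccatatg
Tfrc, chr16:32631711-32631737, plus strand: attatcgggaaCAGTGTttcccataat
Ftl1-ps1 (chr13:74406429-74406455, plus strand) holds the same 27 bases as Ftl1.

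Ftl1-ps1 matters for every statement on the light chain. Its name marks it as a pseudogene of Ftl1, although the GENCODE annotation lists it as protein coding. The Ftl1 transcript (968 bases) and the unspliced Ftl1-ps1-202 transcript (938 bases) aligned over 910 bases with 4 differences, an identity of 99.6%. Counted from 1 at the 5′ end of the Ftl1 transcript, with the Ftl1 base first, these were A196G ahead of the coding region, G721A and G757A within it, and A817G behind it. The last 3 lie within the final 250 bases, the end from which 3′ libraries read. The differing base is in capitals in each pair.
Ftl1, G721A, chr7:45458177-45458205, minus strand: ctccgcagggtggcGgggccacaaccagc
Ftl1-ps1, G721A, chr13:74407057-74407085, plus strand: ctccgcagggtggcAgggccacaaccagc
Ftl1, G757A, chr7:45458141-45458169, minus strand: ggcgcgccccagggGtctctgggcgagta
Ftl1-ps1, G757A, chr13:74407093-74407121, plus strand: ggcgcgccccagggAtctctgggcgagta
Ftl1, A817G, chr7:45458081-45458109, minus strand: taggaggcctctgtAccttccaaggggct
Ftl1-ps1, A817G, chr13:74407153-74407181, plus strand: taggaggcctctgtGccttccaaggggct
Of the 410 windows of 91 bases (the read length in the labels) within the last 500 bases of Ftl1, 223 (54.4%) occur unchanged in Ftl1-ps1. A read of such a window cannot be assigned by its sequence, and how such reads were counted is not given in the sources used here. If they were left out, the sum of both features and its ratio to Fth1 miss them too, by a share that was not measured.

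**Figure D1:**
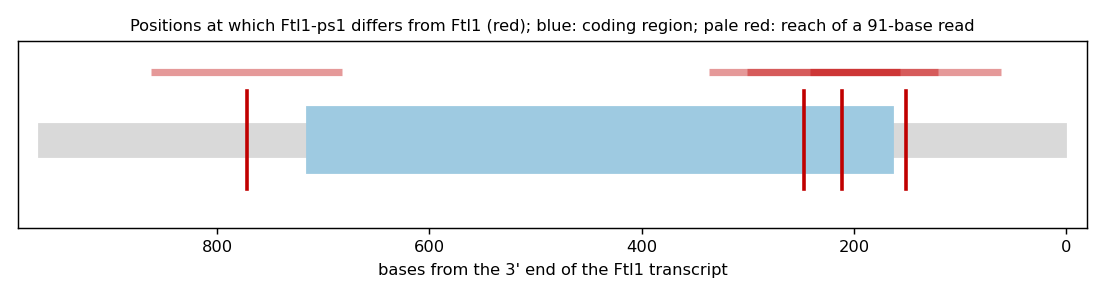
The Ftl1 transcript drawn to scale, with the distance from its 3′ end in bases on the horizontal axis and the coding region in blue. Red lines mark the 4 positions that differ in Ftl1-ps1 and pale red bars the reach of a 91-base read over each: 3 of the 4 lie 247, 211 and 151 bases from the end, and the final stretch holds none.

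After the filters on cells, LB held 1783 cells with 45490517 UMIs (unique molecular identifiers, 1 per captured molecule) and LBPXRS 2705 cells with 51832444. The median depth was 25418 UMIs per cell in LB and 19058 in LBPXRS, and 8 kept barcodes occur in both libraries. Levels are counts per 1000000 UMIs (CPM) of the summed cells. Each interval is given at 95% and reflects the counting of UMIs alone, not variation between cultures. With 1 library per condition no difference has a replicate check, and no p-value is given. Fewer expressing cells and less RNA per cell cannot be told apart in these sums. Pou5f1, expressed in embryonic stem cells but not in them alone, had 719 CPM in LB and 990 CPM in LBPXRS. The libraries also differ beyond the media: Y-linked genes had 2872 UMIs in LB and 1 in LBPXRS, and genes of chromosomes 8 and 11 had median log2 ratios of -0.60 and -0.65, against -0.17 to 0.01 for the other autosomes and X. Nqo1 and Hmox1 lie on chromosome 8.

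Across all genes, log2 ratios of LBPXRS over LB had a median of -0.14 (CPM with a pseudocount of 1, for 12618 genes at a mean CPM of at least 1). Among the 7661 genes that reached 10 CPM in LB or in LBPXRS, 7.98% passed 2-fold towards LBPXRS and 10.4% passed it towards LB, together 18.3%. With TMM scaling the split turned from 611 higher and 794 lower to 781 higher and 596 lower. By the same rule, 9 of the 10 members reached the CPM minimum. Ftl1 and Nqo1 were past 2-fold higher, Ftl1-ps1 was past 2-fold lower, and Slc40a1 was under the minimum.

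Ftl1 (ENSMUSG00000050708, chr7:45457944-45459884) had 216215 UMIs in LB and 947100 in LBPXRS, or 4753 CPM (4733 to 4773) against 18272 CPM (18236 to 18309). Ftl1-ps1 (ENSMUSG00000062382, chr13:74399694-74407346) went the other way, with 196339 UMIs in LB and 3903 in LBPXRS. Its level was 4316 CPM (4297 to 4335) in LB and 75.3 CPM (73.0 to 77.7) in LBPXRS, 57.3-fold lower. Y-linked UMIs, 2872 and 1, differed between the same libraries, and whether the cultures differ in genotype, and its part in this split, was not tested. Read alone, Ftl1 was 3.84-fold higher in LBPXRS (3.83 to 3.86). Summed over both features, the light chain reached 9069 CPM (9041 to 9097) in LB against 18348 CPM (18311 to 18385) in LBPXRS, 2.02-fold higher (2.02 to 2.03), with a log2 ratio of 1.02. The log2 ratio of the sum was 0.93, under the 2-fold line, when genes of chromosomes 8, 11 and Y were left out of the totals.

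Fth1 (ENSMUSG00000024661, chr19:9980598-9985098), the heavy chain that oxidises iron for storage, stood at 1664 CPM (1652 to 1676) in LB against 1677 CPM (1665 to 1688) in LBPXRS. The ratio of LBPXRS to LB was 1.007, with a counting interval from 0.998 to 1.017, and the log2 ratio of 0.01 became -0.07 without genes of chromosomes 8, 11 and Y in the totals and 0.19 with DESeq2 size factors. UMIs of the light chain per UMI of Fth1 were 5.45 in LB and 10.9 in LBPXRS; such counts are not scaled by length, so only the change between libraries is read. The 3 ferritin features took 1.07% of all UMIs in LB and 2.00% in LBPXRS.

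**Figure D2:**
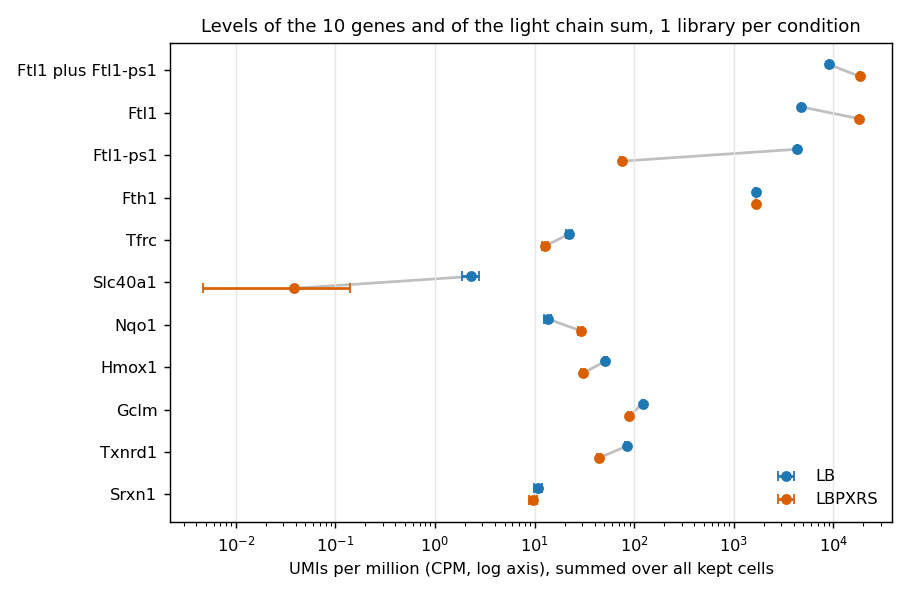
Levels of each gene and of Ftl1 plus Ftl1-ps1 in LB (blue) and LBPXRS (orange) as CPM on a log axis, 1 point per library, with 95% counting intervals as bars. Ftl1-ps1 spans the widest range of the genes that reached 10 CPM in either library, 4316 to 75.3 CPM, while the points of Fth1 lie together. Slc40a1 was under that minimum and rests on 2 UMIs in LBPXRS.

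The split of the light chain was also read cell by cell. Among cells with at least 20 light chain UMIs (1728 in LB and 2692 in LBPXRS), the share of Ftl1-ps1 had a median of 47.1% in LB, with 5th and 95th percentiles of 37.4% and 57.9%. In LBPXRS the median was 0.355%, the 95th percentile 1.14% and the highest cell 6.45%. In all, 2 of the 1728 LB cells lay below 10% and 0 of the 2692 LBPXRS cells above it. Pooled, the share was 47.6% in LB (47.4 to 47.7) and 0.410% in LBPXRS (0.398 to 0.423). In LBPXRS the variance of the share between cells was 1.05 times the binomial value. In LB it was 3.26 times the binomial value. Over 7 clusters per library the share ran from 45.7% to 49.2% in LB and from 0.381% to 0.432% in LBPXRS (0.284% to 0.545% with 14 clusters).

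The light chain sum also differed across the whole distribution of cells. Its median per cell was 8139 CPM in LB, with an interquartile range from 5873 to 10801, and 16971 CPM in LBPXRS, from 13301 to 21643. Only 4.43% of LB cells were above the LBPXRS median and 2.59% of LBPXRS cells below the LB median. For Fth1 the medians were 1493 CPM (1124 to 1978) and 1559 CPM (1219 to 2004). Among cells with at least 10 Fth1 UMIs, the ratio of light to heavy chain UMIs had a median of 5.42 in 1675 LB cells and 10.8 in 2545 LBPXRS cells.

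**Figure D3:**
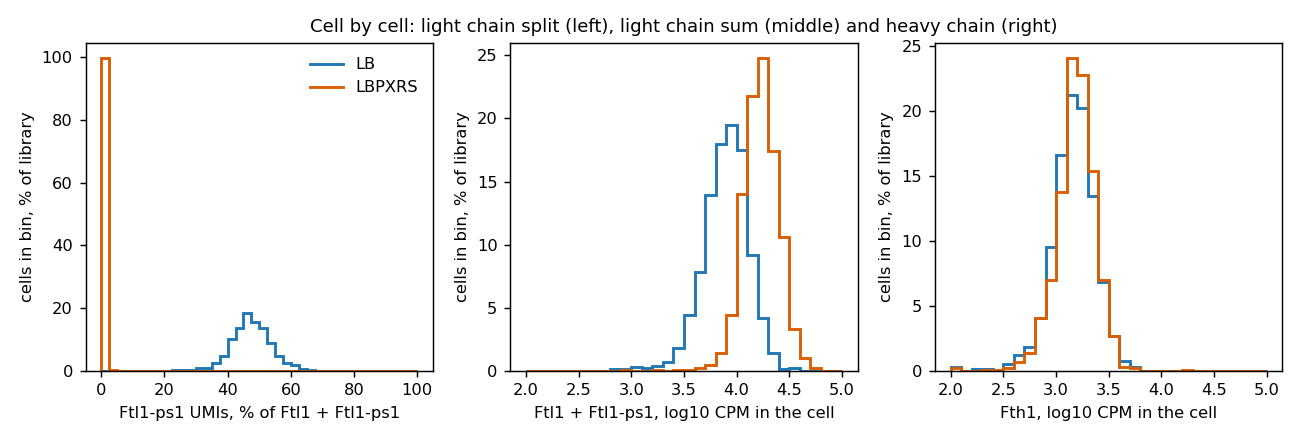
Cells per bin as a percentage of each library (LB blue, LBPXRS orange), for the share of Ftl1-ps1 in cells with at least 20 light chain UMIs, the light chain sum and Fth1, the last pair as log10 CPM in the cell with values under 100 CPM placed in the first bin. The share separates the libraries, at medians of 47.1% and 0.355%, the light chain sum is shifted, and the Fth1 curves overlap, at medians of 1493 and 1559 CPM.

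Tfrc (ENSMUSG00000022797, chr16:32608920-32632794) was lower in LBPXRS, with 1009 UMIs against 663. Its level was 22.2 CPM (20.8 to 23.6) in LB against 12.8 CPM (11.8 to 13.8) in LBPXRS, a log2 ratio of -0.75. Slc40a1 (ENSMUSG00000025993, chr1:45908068-45926523), the only known exporter of iron from cells, had 105 UMIs in LB and 2 in LBPXRS, 59.8-fold lower with a counting interval from 16.2 to 500.4. It was scarce even in LB, at 2.31 CPM, with a UMI in 4.94% of LB cells (3.98 to 6.05). With cells thinned to 5000 UMIs each, the share of cells with a Tfrc UMI was 11.1% (9.64 to 12.7) among 1733 cells of LB. Among 2621 cells of LBPXRS it was 6.26% (5.36 to 7.25). Without thinning the shares were 39.1% and 19.4% of kept cells. Slc40a1 was found in 1.67% of the thinned LB cells (1.12 to 2.39) and in 0 of the thinned LBPXRS cells, with an exact upper limit of 0.141%. That limits cells with a UMI at this depth, not cells that express the gene, and before thinning 2 LBPXRS cells held a UMI. The level that free RNA alone would give was not measured for Tfrc or Slc40a1.

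Beside the ferritin genes, 5 of the 10 genes are NRF2 targets, and they did not differ in 1 direction. Nqo1 (ENSMUSG00000003849, chr8:107388225-107403206), a quinone reductase, had 616 UMIs in LB and 1504 in LBPXRS. Its level was 13.5 CPM (12.5 to 14.7) in LB and 29.0 CPM (27.6 to 30.5) in LBPXRS, 2.14-fold higher (1.95 to 2.36), on a chromosome whose median went the other way. Without genes of chromosomes 8, 11 and Y in the totals its log2 ratio was 0.97, just under the 2-fold line. Txnrd1 (ENSMUSG00000020250, chr10:82833951-82897712), which reduces thioredoxin, stood at 84.4 CPM (81.8 to 87.1) in LB against 44.5 CPM (42.7 to 46.4) in LBPXRS, a log2 ratio of -0.91. Hmox1 (ENSMUSG00000005413, chr8:75093621-75100589), which breaks down haem and frees its iron, had 51.3 CPM (49.3 to 53.4) and 30.6 CPM (29.1 to 32.1). Its log2 ratio was -0.73, beside a chromosome 8 median of -0.60. Whether the chromosome has a part in the levels of Nqo1 or Hmox1 was not tested.

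Gclm (ENSMUSG00000028124, chr3:122245557-122270732), the modifier subunit of the enzyme that starts glutathione synthesis, stood at 122 CPM (119 to 125) in LB against 89.8 CPM (87.2 to 92.4) in LBPXRS, a log2 ratio of -0.44. Srxn1 (ENSMUSG00000032802, chr2:152105516-152111376), which restores overoxidised peroxiredoxins, had 10.7 CPM (9.82 to 11.8) and 9.63 CPM (8.80 to 10.5), and its ratio to LB of 0.896 had a counting interval from 0.789 to 1.02 that includes equal levels. The 5 genes summed to 282 CPM in LB and 204 CPM in LBPXRS, with 4 of the 5 below 0 on the log2 scale, as were 7316 of the 12618 genes in all. Srxn1, 1 of the 4, stood at 0.02 with DESeq2 size factors. Relative to the median of all genes, Srxn1 stood at -0.01 and Txnrd1 at -0.77.

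A core of the antioxidant response element, TGACNNNGC, was searched on both strands of RefSeq promoter windows (GRCm38.p6, 250 bases before to 50 after a start site). Windows existed for 7 of the 10 members, and 3 of their 11 windows held the letters, against 12.4% of 32851 windows in all. The matches are shown with the motif in capitals, each on the gene's strand, where it reads as its reverse complement.
Gclm, chr3:122245413-122245441, plus strand: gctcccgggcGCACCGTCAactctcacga
Srxn1, chr2:152105542-152105570, plus strand: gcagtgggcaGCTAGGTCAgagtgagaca
Txnrd1, chr10:82859104-82859132, plus strand: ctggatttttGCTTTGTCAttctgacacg
The Gclm match lies at -134 to -126 from the start site, the Srxn1 match at 28 to 36 after it, and the Txnrd1 match at -92 to -84 from 1 of its 3 annotated starts. The windows of Nqo1, Ftl1, Fth1 and Tfrc did not hold these letters, which says nothing of the factor. Hmox1, Slc40a1 and Ftl1-ps1 had no window.

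Cell-to-cell spread was measured on cells thinned to 5000 UMIs, as the Fano factor (variance over mean, 1 for pure counting noise). For the light chain sum it was 10.4 in LB at a mean of 44.5 UMIs and 14.2 in LBPXRS at 92.0. None of the 16 LB genes within 1.5-fold of its mean had a higher value, and their median was 2.62; LBPXRS had no gene in that range. The excess squared coefficient of variation, which removes counting noise, was 0.211 in LB and 0.143 in LBPXRS for the light chain and 0.168 and 0.119 for Fth1, so relative to their means both were more even in LBPXRS. Hmox1 had Fano factors of 1.29 and 1.26, above all but 111 of 1636 and 44 of 2062 genes of like mean. Its excess squared coefficient of variation in LBPXRS, 1.70, was 0.927 with another thinning seed. Txnrd1 in LBPXRS, at 1.06, was near the median of 1.04 for its range, and in LB it was 1.16 beside 1.08. In LBPXRS, Gclm was at 1.26 beside a median of 1.06 and Nqo1 at 1.14 beside 1.03. Srxn1 was at 1.12 there beside 1.01, and Tfrc at 1.10 beside 1.02. Ftl1-ps1 in LBPXRS had a value of 1.00.

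Across thinned cells, light chain and Fth1 were correlated at r = 0.239 in LB (1733 cells) and 0.186 in LBPXRS (2621 cells), as a description of cells that share a library. Pairs were also formed with Tfrc, Hmox1, Nqo1, Gclm, Txnrd1 and Srxn1, and Slc40a1 was left out. The other 27 pairs lay between -0.053 and 0.106 in LB and between -0.049 and 0.073 in LBPXRS, which in sparse counts is no finding. Other genes were ranked by the same measure with the 10 members left out of the ranking. Of 2468 genes at a CPM of at least 50 in LB, members included in that number, those most like the light chain were Rplp1 (0.458), Mt1 (0.405), Rps12 (0.373), Rpl41 (0.369) and Rps23 (0.360). Mt1 encodes a metal-binding metallothionein, and the others are ribosomal proteins. In LBPXRS, among 2249 genes, they were S100a13 (0.306), Rplp0 (0.282), Rpl13a (0.276), Rps2 (0.267) and Fabp3 (0.258). For Fth1 the highest among genes other than the members were H2afz (0.338), Atox1 (0.238), Ptma (0.236), Rps27l (0.233) and Rpl41 (0.219) in LB, and Rplp0 (0.179), Rps2 (0.138), Eif4ebp1 (0.122), Stmn2 (0.119) and Ybx1 (0.114) in LBPXRS. For the sum of the 5 NRF2 targets other than ferritin no gene passed 0.129 in LB (Pim2) or 0.088 in LBPXRS (Tubb4b).

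Each library was clustered on variable genes without the 10 members, giving 7 clusters in each, described here by their leading genes and with no test. The light chain sum ran from 5800 to 10270.3 CPM over LB clusters and from 13622 to 24617 CPM over LBPXRS clusters, so the ranges did not overlap, nor did they with 14 clusters per library (highest LB cluster 12634, lowest LBPXRS cluster 13599 CPM). In LB it was lowest in cluster 7 (61 cells led by Slc7a3, Pmel and Spp1, with 6.19% mitochondrial UMIs and a median of 10944 UMIs) and next in cluster 2 (354 cells led by Prdm6, Foxf1 and Pitx1) at 6525 CPM. The highest LB value was in cluster 5, led by Calb2. In LBPXRS it was highest in cluster 3 (520 cells led by Gata2, Bhlhe41 and Dusp4) and lowest in cluster 7 (77 cells with 0.282% mitochondrial UMIs and a median of 3382 UMIs). Fth1 overlapped between libraries, from 1254 to 2024 CPM in LB and from 1286 to 1848 CPM in LBPXRS. The ratio of light to heavy chain UMIs ran from 3.29 to 8.19 in LB and from 9.26 to 14.8 in LBPXRS, but with 14 clusters the highest LB value, 9.02, passed the lowest LBPXRS value, 6.69.

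The receptor and the exporter had their own patterns. Tfrc was highest in LB cluster 7, at 59.2 CPM (43.0 to 79.5), the cluster with the least light chain, and in the other LB clusters it ran from 14.1 CPM in cluster 6 to 25.98 CPM in cluster 2. In LBPXRS it was 18.9 CPM (16.4 to 21.6) in cluster 1, led by Id3, Krt8 and Krt18, and 7.30 CPM (5.75 to 9.13) in cluster 3, the one with the most light chain. Cluster 7 of LBPXRS, the one with the least light chain in that library, had 0 Tfrc UMIs, with an upper limit of 10.7 CPM. Across thinned cells, Tfrc and the light chain sum were correlated at r = -0.041 in LB and -0.020 in LBPXRS, which in sparse counts is no finding. Of the 105 Slc40a1 UMIs in LB, 26 came from the 79 cells of cluster 6, led by 3830417A13Rik and Cxcl10, at 11.8 CPM (7.73 to 17.3). Cluster 5 had 1 Slc40a1 UMI, and cluster 1, the largest LB cluster and led by Gm46332, Gm14820 and Zfp42, had 15 at 0.901 CPM (0.504 to 1.49).

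Among NRF2 targets, LB cluster 4 (265 cells led by Pim2, Fgf5 and Tmem54) had the highest Gclm, at 203 CPM (193 to 213), and the highest Txnrd1, at 135 CPM (127 to 144). Its Nqo1 level was 13.6 CPM, beside 13.5 CPM in LB as a whole. LB cluster 2 had the lowest Gclm in LB, at 73.0 CPM (67.4 to 79.0), and the lowest Nqo1, at 4.54 CPM (3.23 to 6.21). In LBPXRS, Nqo1 was 44.8 CPM (41.0 to 48.9) in cluster 1, 37.9 CPM (33.5 to 42.8) in cluster 4, led by Hspa5, Tuba3a and Rhox6, and 18.4 CPM (15.9 to 21.2) in cluster 3. Cluster 7, at a median of 3382 UMIs per cell, had 81.1 CPM on 28 UMIs (53.9 to 117). Of the 7 LBPXRS clusters it had the highest level of each of the 5 targets. They summed to 345 CPM there on 119 UMIs (285 to 412), against 155 to 246 CPM in the other clusters. Cluster 3 also had the lowest Gclm, at 61.9 CPM (57.2 to 66.9), and the lowest Txnrd1, at 32.9 CPM (29.5 to 36.6), of the LBPXRS clusters. With 14 clusters, a cluster of 39 LBPXRS cells had the highest level of each of these 5 targets in that library, at 123 CPM of Hmox1, 83.0 CPM of Nqo1, 216 CPM of Gclm, 112 CPM of Txnrd1 and 23.5 CPM of Srxn1. They summed to 557 CPM there, against 145 to 341 CPM in the other 13 clusters of that division. For Nqo1 and Srxn1 a cluster of 79 shallow cells was close to it, at 82.6 and 22.03 CPM. This cluster of 39 cells was singled out after its values were seen.

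**Figure D4:**
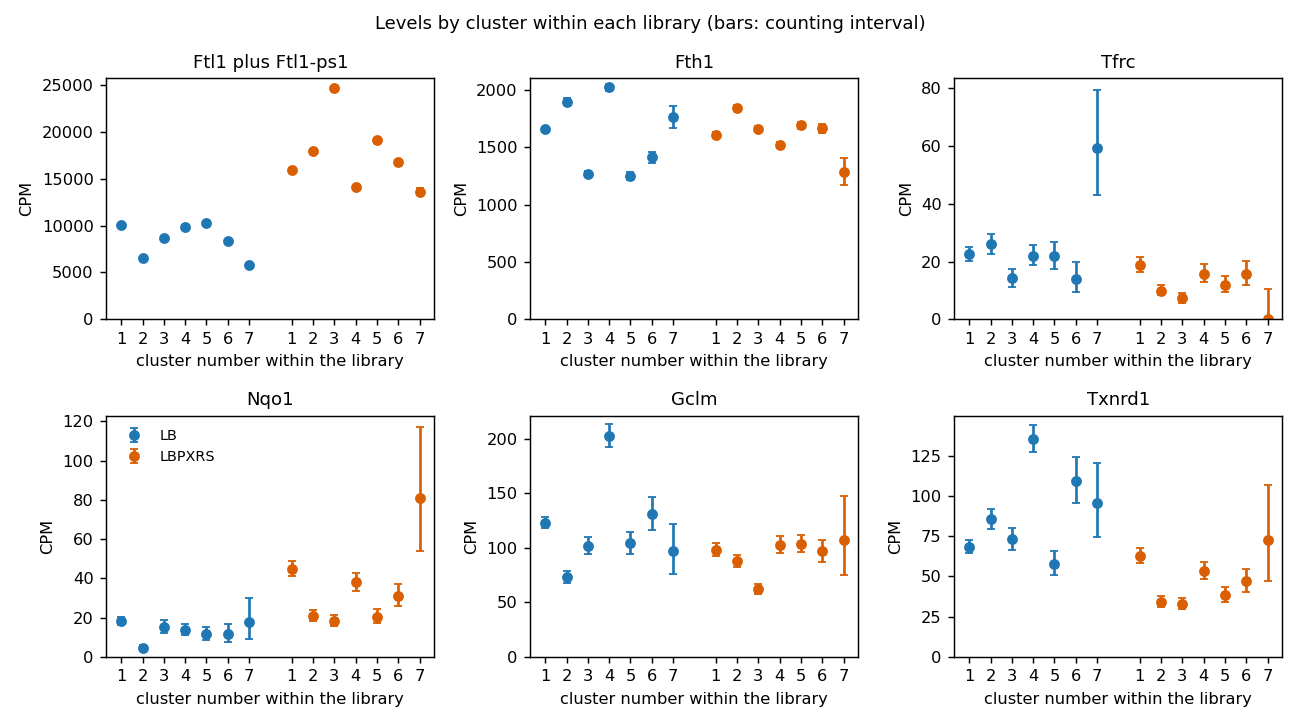
CPM of the light chain sum, Fth1, Tfrc, Nqo1, Gclm and Txnrd1 in the 7 clusters of LB (blue) and the 7 of LBPXRS (orange), numbered by size within each library, with 95% counting intervals. The highest LB cluster of the light chain sum is at 10270.3 CPM and the lowest LBPXRS cluster at 13622 CPM. Tfrc stands out in LB cluster 7 and Gclm and Txnrd1 in LB cluster 4.

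The rest of the pathways was read from lists that hold the members too. The NRF2 target list had 28 genes, with a median log2 ratio of -0.15 over 27 genes, against -0.14 over all genes. Of its 24 genes at the CPM minimum, 4 passed 2-fold towards LBPXRS and 0 towards LB, beside 7.98% and 10.4% of all genes. Those 4 were Ftl1 and Nqo1 with the glutathione transferases Gsta4, at 136 CPM (132 to 139) in LB against 353 CPM (348 to 359) in LBPXRS, and Gstm1, at 32.1 CPM (30.5 to 33.8) and 88.7 CPM (86.1 to 91.3). Without chromosomes 8, 11 and Y in the totals, Nqo1 at 0.97 and the light chain sum at 0.93 were under the line. Below the CPM minimum, Mgst1 had 290 UMIs in LB and 22 in LBPXRS. Slc7a11 (28 and 80), Ephx1 (137 and 279) and Osgin1 (4 and 7) had more in LBPXRS. These scarce genes were named after their values were seen. Of the 9 regulators of NRF2, 8 reached the minimum and 0 passed 2-fold in either direction, around a median of -0.22.

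The list of iron uptake, release and reduction had 13 genes and a median log2 ratio of -0.17 over all of them. That value includes genes with few or no UMIs, whose ratios the pseudocount draws towards 0. Over the 8 genes at a mean CPM of at least 1 the median was -1.03. Slc40a1 and Slc39a8 reached that level only through LB, and Trf, at 0.989 CPM in LB and 1.74 CPM in LBPXRS, only through LBPXRS. The value of -1.03 is therefore not read as a difference of the list. Only Tfrc reached 10 CPM, so none was counted past 2-fold. The other genes of the 8 were named after their values were seen. UMIs were fewer in LBPXRS for the metal transporters Slc39a14 (410 in LB and 70 in LBPXRS) and Slc39a8 (141 and 6) and for the reductase Steap2 (309 and 111), with log2 ratios of -2.09, -1.88 and -1.31. Steap3 had 90 and 85 UMIs, at -0.17. Slc11a2, another iron importer, had 396 and 455 UMIs at 0.01, and Trf, which encodes transferrin, had 45 and 90 at 0.46. In the storage list, 6 of 7 genes reached a mean CPM of 1 (Ftmt had 0 UMIs in both libraries), and 2 of the 6, Ftl1 and Ftl1-ps1, were past 2-fold, beside 18.3% of all genes in either direction. These 2 calls are not read as separate, since the transcripts are near-identical and reads of their shared windows cannot be assigned by sequence. The sum of both features gives 1 call, at 1.02, which was under the line at 0.93 without chromosomes 8, 11 and Y in the totals. The 3 iron sensors had a median of -0.43, none past 2-fold. The 18 genes of mitochondrial iron, iron-sulfur and haem synthesis had a median of -0.06, 9 in each direction, and 0 of 15 past 2-fold, beside the same 18.3%.

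**Figure D5:**
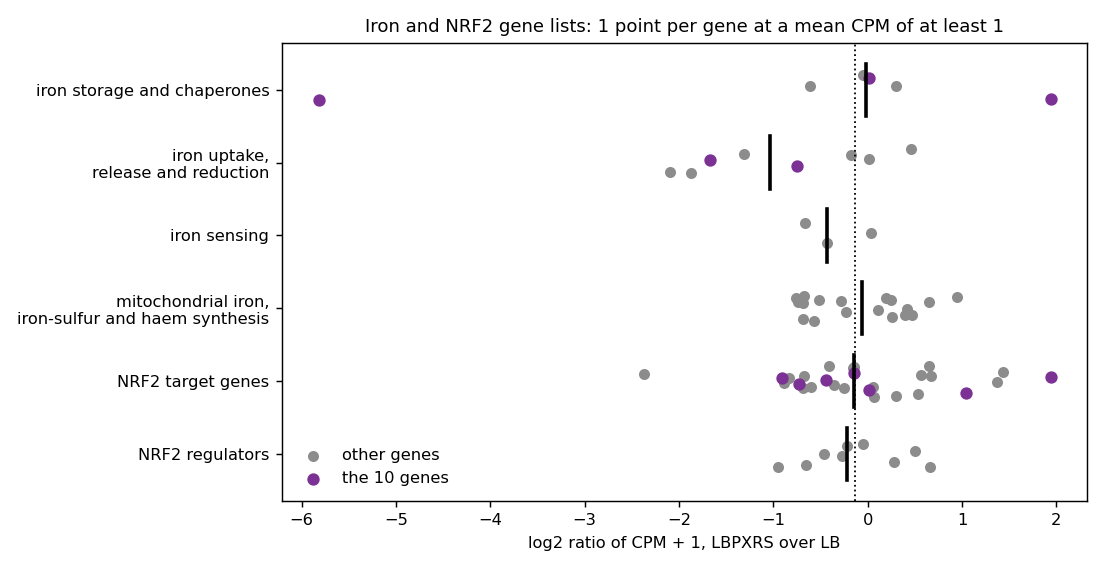
Log2 ratio of CPM plus 1, LBPXRS over LB, for genes of 6 lists at a mean CPM of at least 1, with the 10 members in purple, other genes in grey, black bars at list medians and a dotted line at the median of all genes (-0.14). The NRF2 target median of -0.15 lies at that line, while the bar of the iron uptake list, at -1.03, rests on 8 scarce genes. Over all 13 genes of that list the median was -0.17, with genes of few or no UMIs included, which the line leaves out.

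Blood and macrophage cells handle much iron, so their markers were read beside these results. The erythroid list summed to 1.69 CPM in LB and 2.32 CPM in LBPXRS, with 2 of its 5 markers, the globins Hbb-bh1 and Hba-x, at 0 in both libraries. The macrophage list summed to 15.1 and 44.7 CPM, with Ptprc and Adgre1 at 0 in both and 3 of its 5 markers at 0 in each library. Over clusters this sum ran from 6.76 to 27.2 CPM in LB. In LBPXRS it was 81.8 CPM, with Cd68 raised, in cluster 3, the one with the most light chain, and 28.0 to 42.1 CPM in the others. The fibroblast list summed to 14.1 and 4.51 CPM. Naive pluripotency markers summed to 871 and 1507 CPM, formative markers to 603 and 140.4 CPM, and mesoderm markers to 317 and 4.80 CPM. Trophoblast markers summed to 445 and 109 CPM, and primitive endoderm markers to 174 and 464 CPM. Their part in the values above was not tested.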

How the data were processed

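Processed matrices of 2 libraries were used. Per the file headers and the submitters' processing notes, the authors made the deposited UMI counts with Cell Ranger 4.0.0, and the notes name the build mm10. Cell calling settings and the annotation release are not given in the sources used here. Per the labels, libraries were made with 10x 3′ version 2 chemistry. Barcodes with fewer than 1000 genes or over 10% mitochondrial UMIs were left out (225 of 2008 in LB and 406 of 3111 in LBPXRS). Scrublet in scanpy 1.11.5 marked 12 and 14 doublets, which were kept. Counts were summed per library and scaled to 1000000. Log2 ratios use a pseudocount of 1 CPM, which understates changes of low genes. Intervals are Poisson, Clopper-Pearson or conditional binomial. Thinning left out 50 LB and 84 LBPXRS cells under 5000 UMIs. Clusters used 2000 variable genes, 30 principal components, 15 neighbours and Leiden resolution 0.5. GENCODE M21 positions matched 32158 of 32285 identifiers (99.6%). The fold rule was tested on simulated counts. The members, lists and rules were chosen with earlier results of these data known. Named genes were the members, list genes past 2-fold at a CPM of at least 10, and the 5 most correlated genes. The scarce iron uptake and NRF2 target genes were added after their values were seen. Alternatives covered scaling (edgeR 4.0.16 TMM, DESeq2 1.42.0 size factors), totals, pseudocount, cell filters, doublets, thinning and clustering.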

Additional observations from a re-analysis of the deposited data

How the results depend on the processing

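Each member's log2 ratio was recomputed under 12 alternatives, and all kept their sign except Fth1 (-0.07 to 0.19) and Srxn1 (-0.23 to 0.02), both near 0. The light chain sum, 1.02, was 1.17 with TMM scaling, 1.20 with DESeq2 size factors, 1.03 without ferritin in the totals, 0.93 without chromosomes 8, 11 and Y in them, 1.005 without cells under 0.5% mitochondrial UMIs, 1.05 as a mean over cells, 1.05 after thinning and 1.94 for Ftl1 alone. No further light chain feature was in the gene table, so that alternative gave no value. TMM scaling moved the median of all genes from -0.14 to near 0 (-0.00071) and the haem and iron-sulfur median from -0.06 to 0.091, which was -0.22 at a mean CPM of at least 10. With no filter on low values the iron uptake median was -0.17 in place of -1.03, since genes near 0 entered, and the counts past 2-fold were 1117 higher and 1561 lower. At Leiden resolution 1 the highest over the lowest LBPXRS cluster went from 2.74 to 7.33 for Hmox1, 1.73 to 4.61 for Gclm, 2.20 to 3.67 for Txnrd1, 2.93 to 9.36 for Srxn1, 2.22 to 3.85 for the sum of 5, 1.6 to 2.66 for light over heavy chain and 1.13 to 1.92 for the Ftl1-ps1 share. In LB it went from 4.02 to 11.1 for Nqo1 and 2.78 to 4.19 for Gclm. The excess squared coefficient of variation of Hmox1 in LBPXRS, 1.70, was 0.927 with another thinning seed; the cause was not tested. No paired analysis was possible because each condition has 1 library. Depth limits Slc40a1 (2 UMIs in LBPXRS) and the smallest clusters.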

Other observations

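The 2 LB cells with a Ftl1-ps1 share under 10% had 2 of 350 and 2 of 37 light chain UMIs on Ftl1-ps1 (0.571% and 5.41%), values within the LBPXRS range. They held 3 and 1 Y-linked UMIs, against 1 in the whole LBPXRS library. Both were chosen after their values were seen.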
